A study of Mus musculus with 3 samples.

Results

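A set of 10 genes of the elastic fibre and its microfibrils were followed across 3 single-colour Agilent expression arrays of C3H10T1/2 cells, an established mouse embryo fibroblast-like line used in transformation assays. They are elastin (Eln), fibrillin (Fbn1), the fibulins Fbln1, Fbln2, Fbln5, Efemp1 and Efemp2, and the microfibril-associated glycoprotein genes Mfap2, Mfap4 and Mfap5. A probe was a member when its gene name in the scanner files was one of these symbols and it was not a control, which gave 10 genes with 15 probes, of 27724 gene names and 41167 probes measured on all arrays. The genes were selected on values from these same arrays, including their difference between 1 uM and untreated, so every count of them below is a description without a test.

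The 3 arrays held RNA from untreated cells, from cells given 0.01 uM Cr(VI) and from cells given 1 uM Cr(VI), with 1 array per condition. Cr(VI) is hexavalent chromium, a genotoxic carcinogen that enters cells as chromate. Each group began as 3 flasks of 2000 cells in DMEM, and in the exposed groups chromium was added 24 h after seeding and washed away 48 h later. The cells were then kept in fresh medium to day 15, when they were detached and one portion gave the RNA. The labels do not say whether the 3 flasks were pooled, and the array therefore carries no spread between cultures. In bulk RNA of this kind, fewer cells expressing a gene and less of its RNA per cell cannot be told apart.

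Elastic fibres consist of a core of cross-linked elastin laid on a scaffold of fibrillin microfibrils. Fibulins and microfibril-associated glycoproteins bind elastin, fibrillin or both and take part in assembling the fibre, and lysyl oxidases cross-link the elastin. Connective tissue fibroblasts and smooth muscle cells are the main producers, and fibrillin microfibrils also hold latent TGF-beta and BMP complexes in the matrix.

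The elastic fibre genes were lowest on the 1 uM array, and the size of the difference was very unequal among them. Mfap5 went from a clear signal to one not well above background, a difference of at least 20.0-fold under the normalization described below. Fbln1 was 9.11-fold and Fbln5 4.98-fold lower, Efemp1 was lower by at least 2.52-fold and Eln by 2.02-fold. Fbn1 was 1.85-fold, Fbln2 1.56-fold and Efemp2 1.15-fold lower, and Mfap2 and Mfap4 were not well above background on any array. At 0.01 uM none of the 8 detected genes differed 2-fold from untreated.

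The probes of the genes with the largest differences, and all probes of the genes for which several probes bear on the reading, are shown as the first 30 of their 60 bases, as the scanner files give them. They are lower case throughout because no part of them is singled out.
Eln, A_52_P609972: ataccggaagccttgacgatggatttggtg
Fbln1, A_52_P588483: ttttttaaccaacggggctctttgtgtttc
Fbln1, A_51_P154417: aattttgttcccttttctacctgtgagcta
Fbln5, A_51_P186703: gcccagtttttacgaagaccccttaatcat
Fbln5, A_52_P278336: agacaaaactagaacatgacctcttttagt
Fbln5, A_52_P288050: ctcccagaaagttaaattcctagatagtca
Efemp1, A_51_P337412: tatctagtgaaacttggattctttcctgca
Mfap5, A_51_P363681: agaggctcgagccacagagcttccttctag
In the mm9 coordinates of the scanner files these probes lie at chr5:135179129-135179188 on the minus strand (Eln), chr15:85115998-85116057 and chr15:85115854-85115914 on the plus strand (Fbln1), chr11:28826538-28826597 on the plus strand (Efemp1) and chr6:122478938-122478997 on the plus strand (Mfap5). The 3 Fbln5 probes lie on the minus strand of chromosome 12, at chr12:102988189-102988248, chr12:102984878-102984937 and chr12:103002702-103002761. Exon and UTR annotation of that build was not used here.

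Values below are normalized levels, the log2 of the scanner's processed signal minus the 75th percentile of that log2 signal over all probes of the same array, so that a level of 0 is the signal of the probe at that percentile. A gene is given by its probe with the highest mean level, and its other probes are given beside it. The error is the standard error of a difference computed from the scanner's own error model, which is technical and says nothing of the spread between cultures. It was nearly constant, at 0.20, for the bright elastic fibre probes and reached 0.35 for a dim one, so it is a modelled error. Replicate spots of a probe within an array had a median SD of 0.057 untreated, 0.057 at 0.01 uM and 0.059 at 1 uM. That spread leaves out differences between arrays. Where a probe was not well above background on an array, the difference is a bound set against the lowest signal detected there, or against the probe's own signal where that was higher. Depth is not defined for arrays, and having 1 array per condition limits the precision.

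The processed signal at the 75th percentile was 697 untreated, 515 at 0.01 uM and 752 at 1 uM. Between 36.4% and 41.8% of probes were well above background, and 0.483% to 0.581% were saturated. Over all genes detected on either array of the pair, 693 of 12449 exceeded untreated by 2-fold or more at 1 uM and 605 lay below it by as much, so 53.4% of these differences were upward. Scaling to the spike-in controls gave 94.7% upward in the same comparison and moved the median of all genes detected on every array to 0.62. For 0.01 uM against untreated, 60.8% of 51 differences were upward, and the share was 48.3% when the percentile was taken over detected probes, 72.3% with quantile normalization and 92.8% with spike-in scaling, where the median of all genes was 0.36. For 1 uM against 0.01 uM the upward share was 44.6%, and it was 57.6% with the percentile over detected probes, 56.5% with loess scaling and 79.2% with spike-in scaling, where the median of all genes was 0.27. Every difference below is therefore relative to the bulk of the probes.

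The untreated and 0.01 uM arrays each detected all 12 fibroblast and mesenchymal markers, and the 1 uM array detected 11. The exception was Thy1, a cell-surface glycoprotein of fibroblasts, lower there than untreated by at least 50.2-fold on 1 of its 2 probes. Of the 9 markers with a value at 1 uM, 6 were below untreated and 3 above. Those above were Lum (0.98), Prrx1 (0.14) and Pdgfra (0.21, with -0.39 from another probe). The summed level of the 12, in multiples of the 75th percentile signal, was 587 untreated, 740 at 0.01 uM and 478 at 1 uM. It was 316, 374 and 228 without the 3 genes that were saturated (Col1a1, Col1a2 and S100a4), whose part in the sum is set by the scanner's ceiling. Of 8 smooth muscle markers, 4 were detected untreated, 4 at 0.01 uM and 3 at 1 uM, with summed levels of 111, 147 and 54.4, or 15.2, 17.1 and 7.43 without Acta2, which was saturated on the first and second of these arrays. At 1 uM 3 of the 4 compared were at least 2-fold lower than untreated (Acta2, Tagln and Actg2, the last with a log2 difference of -1.74), although another Tagln probe gave -0.55. Myh11, Cnn1 and Myocd were not well above background on any array. Summed levels were 21.5, 24.8 and 10.55 for 6 chondrocyte markers and 26.4, 28.0 and 6.76 for 6 adipocyte markers, in the same order of arrays. Of the chondrocyte markers 3, 3 and 2 were detected, with Acan, Col9a1 and Matn1 on no array, and of the adipocyte markers 2, 2 and 2 (Fabp4, which makes up most of the sum, and Pparg). Detected markers numbered 0, 0 and 1 of 6 for epithelial cells (Krt19 at 1 uM), 1, 1 and 2 of 6 for endothelial cells and 2, 2 and 3 of 8 for leukocytes, with Epcam, Pecam1 and Ptprc not well above background on any array. With this normalization the fibroblast, smooth muscle, chondrocyte and adipocyte sums were thus all lowest at 1 uM, as the elastic fibre genes were. So was the endothelial sum (2.23, 2.43 and 1.99), which is mostly Vwf (-0.55 from untreated at 1 uM, with -0.79 from another probe). Cdh5, the other endothelial marker compared, went the other way. On 1 of its 2 probes it was higher at 1 uM than untreated by at least 3.69-fold. The leukocyte (5.01, 4.86 and 4.97) and epithelial (0.18, 0.36 and 0.49) sums were not lowest at 1 uM. Sums under other scalings were not computed, and the part of these markers in the elastic fibre values was not tested.

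**Figure D1:**
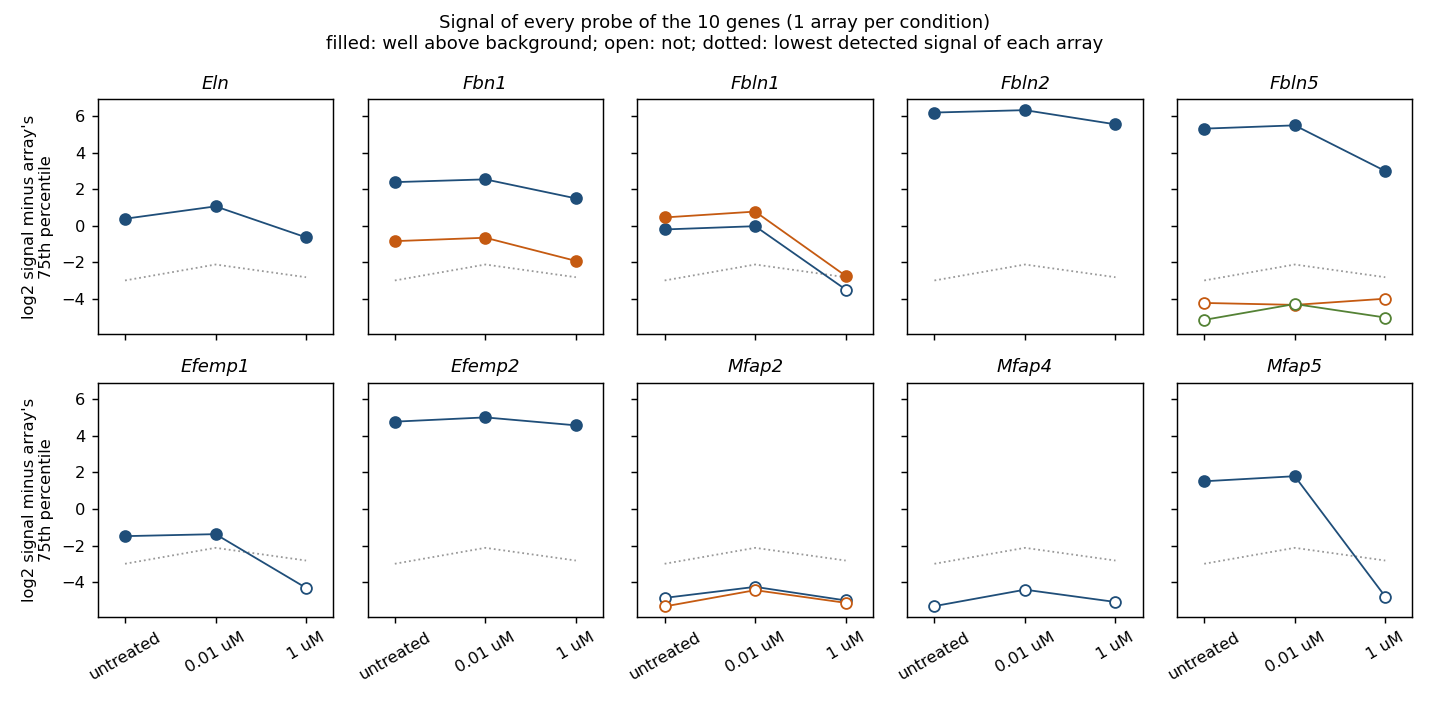
Normalized log2 level (vertical axis, log2 signal minus the array's 75th percentile) of each probe of the 10 genes on the untreated, 0.01 uM and 1 uM arrays, 1 point per array, with probes of a gene in different colours. Filled points are well above background, open points are not, and the dotted line is the lowest detected signal of each array. The 1 uM point is the lowest of each probe that was detected on any array, and the points of Mfap5, Efemp1 and one of the Fbln1 probes fall below the dotted line there.

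Eln encodes tropoelastin, the soluble precursor of the elastin core. Its processed signal was 911 untreated, 1076 at 0.01 uM and 486 at 1 uM, and its normalized level was 0.39, 1.06 and -0.63. Of the 8 detected genes it was the one whose signal was highest on the 0.01 uM array before normalization as well as after it. Eln was lower at 1 uM than untreated by a log2 difference of -1.02 (error-model SE 0.22), just past 2-fold, and higher at 0.01 uM by 0.68 (SE 0.21). Between the exposed arrays the difference was -1.69 (SE 0.22), or 3.23-fold. The 1 uM difference was at least 2-fold in 8 of 12 processing settings. However, those on filters, probe averaging, outlier spots and the authors' values leave a gene with 1 well detected probe, such as Eln, almost unchanged. Among the settings that change scaling or background, quantile normalization (-1.02) and loess scaling (-1.045) kept it past 2-fold. It fell short with the percentile (-0.95) or the median (-0.95) over detected probes, another background correction (normexp, -0.91) and spike-in scaling (-0.33).

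Fbn1 encodes fibrillin-1, the main structural glycoprotein of the microfibril. Its 2 probes lie on chromosome 2, with 467 bases between them. The brighter had normalized levels of 2.38 untreated, 2.54 at 0.01 uM and 1.497 at 1 uM, and the other -0.84, -0.65 and -1.91. Both were lowest at 1 uM, but they fell on different sides of 2-fold there, at -0.89 (SE 0.20) and -1.08 (SE 0.27). Fbn1 was thus the gene just outside the 2-fold threshold by its brighter probe, as Eln was the one just inside it. At 0.01 uM the probes were 0.15 (SE 0.20) and 0.19 (SE 0.24) from untreated, both within the error. With spike-in scaling the 1 uM difference of Fbn1 was -0.20.

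Fbln1 encodes fibulin-1, which binds fibronectin and is found in basement membranes and elastic fibres. Its processed signal was 957 untreated, 883 at 0.01 uM and 113 at 1 uM, that is, normalized levels of 0.46, 0.78 and -2.73. The 1 uM level stood just above the lowest detected level of that array, -2.80. The difference from untreated was -3.19 (SE 0.35) at 1 uM and 0.32 (SE 0.21) at 0.01 uM. The second probe, 83 bases from the first, had levels of -0.20, -0.02 and -3.48, was not well above background at 1 uM, and was there lower than untreated by at least 6.09-fold. The probes gave the same order of the 3 arrays, and the 1 uM difference of the first was past 2-fold in 12 of 12 settings, between -3.31 and -2.16.

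Fbln2 encodes fibulin-2, a relative of Fbln1 that binds fibrillin and fibronectin. Its signals were high on all arrays, at 50584, 40964 and 34939 untreated, at 0.01 uM and at 1 uM, none of them marked as saturated. The normalized levels were 6.18, 6.31 and 5.54. The 1 uM difference was -0.64 (SE 0.20) and the 0.01 uM difference 0.13 (SE 0.20). The first of these was 0.04 with spike-in scaling, and the second was -0.03 with loess scaling, so neither kept its sign in every setting.

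Fbln5 encodes fibulin-5, which binds elastin and cell-surface integrins and is needed for normal elastic fibres in skin, lung and vessels. Its bright probe gave processed signals of 27526 untreated, 23044 at 0.01 uM and 5971 at 1 uM, with normalized levels of 5.30, 5.48 and 2.99. The 1 uM array stood well apart from the other arrays, at a difference of -2.32 (SE 0.20) from untreated and -2.49 (SE 0.20) from 0.01 uM. The 0.01 uM array was 0.18 (SE 0.20) from untreated, within the error. The other 2 Fbln5 probes lie 3251 and 14453 bases from the bright one and were not well above background on any array, with levels between -5.13 and -3.98. The Fbln5 difference at 1 uM therefore rests on 1 probe, and averaging the 3 probes gave -0.65.

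Efemp1 encodes the fibulin also called fibulin-3. Its processed signals were 251 untreated, 200 at 0.01 uM and 38.3 at 1 uM, the last not well above background, so a larger difference than the bound below could not be measured. The normalized levels were -1.47, -1.37 and -4.30. The 1 uM array was lower than untreated by at least 2.52-fold and lower than 0.01 uM by at least 2.71-fold. The bound reached 2-fold against untreated in 9 of 11 settings and was -0.65 with spike-in scaling and -0.97 after another background correction (normexp). The 0.01 uM difference was 0.11 (SE 0.30).

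Efemp2 encodes fibulin-4, which brings lysyl oxidase to tropoelastin. Of the 8 detected genes it differed least between 1 uM and untreated, with processed signals of 19063 untreated, 16562 at 0.01 uM and 17897 at 1 uM. The normalized levels were 4.77, 5.01 and 4.57. The 1 uM difference was -0.20 (SE 0.20), within the error, and turned to 0.48 with spike-in scaling. The 0.01 uM difference was 0.23 (SE 0.20).

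Mfap5 encodes a microfibril-associated glycoprotein that binds fibrillin. Its processed signal was 1999 untreated, 1791 at 0.01 uM and 27.5 at 1 uM, where the lowest detected signal on the array was 108. The normalized levels were 1.52, 1.80 and -4.77. Mfap5 was lower at 1 uM by at least 20.0-fold against untreated and at least 24.3-fold against 0.01 uM, and the bound was past 2-fold in 11 of 11 settings. As a log2 difference from untreated the bound was -4.32, and it was smaller with spike-in scaling (-3.64) and with normexp (-3.985). At 0.01 uM it was 0.28 (SE 0.21) from untreated.

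Mfap2, a close relative of Mfap5 that also binds fibrillin, and Mfap4, an integrin-binding protein of elastic fibres, gave no usable signal in these cells. The 2 Mfap2 probes had processed signals between 17.6 and 27.3, and the Mfap4 probe had signals of 17.8 untreated, 24.5 at 0.01 uM and 22.4 at 1 uM. None was well above background on any array, and no difference is given for them. Of the microfibril-associated genes, Mfap5 alone was therefore measurable.

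Set side by side, 8 of the 10 genes passed the filter on low signal in the comparison of 1 uM with untreated, and 5 of these 8 were at least 2-fold lower (Eln, Fbln1, Fbln5, Efemp1 and Mfap5), where 4.86% of all genes compared were. None was at least 2-fold higher, against 5.57% of all genes. The 8 differences, with bounds at their bound, had a median of -1.17 and ran from -4.32 to -0.20, while the median of all genes was -0.03 and their middle part, between the quartiles, ran from -0.35 to 0.33. All 8 lay below 0, except that Fbln2 and Efemp2 lay above 0 with spike-in scaling. Since this contrast took part in choosing the genes, nothing is read from these shares. Of the 6 measured differences, 5 were larger than 2 error-model SE under the normalization used, the exception being Efemp2. With spike-in scaling Eln (-0.33), Fbn1 (-0.20) and Fbln2 (0.04) also came within 2 of these SE, while Fbln1 (-2.51) and Fbln5 (-1.63) stayed beyond. Fbln2 came within them with quantile normalization as well (-0.37).

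The comparison of 0.01 uM with untreated gave 0 of 8 genes at least 2-fold higher, against 0.26% of all 11914 genes compared, and 0 of 8 at least 2-fold lower, against 0.168%. The differences had a median of 0.21 and ran from 0.11 to 0.68, and the median of all genes was 0.05. Of the 8, 7 were within 2 error-model SE, and Eln was beyond. All 8 lay above 0 under the normalization used, but the sign of the small differences rests on scaling. Before normalization 9 of the 10 detected probes had their highest signal on the untreated array, whereas after it all 10 had their highest level on the 0.01 uM array. The low place of the 1 uM array depended less on it: 9 of 10 probes were lowest there before normalization, with Efemp2 lowest at 0.01 uM, and 10 of 10 after it.

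For 1 uM against 0.01 uM, 6 of 8 genes were at least 2-fold lower, against 6.45% of all 12057 genes compared, and 0 of 8 at least 2-fold higher, against 5.2%. This comparison shares each of its arrays with one of the others and adds no independent measurement. Fbn1 joined the 5 genes named above, at -1.04 (SE 0.21). Fbln2 was at -0.78 (SE 0.20) and Efemp2 at -0.43 (SE 0.20), and the median of the 8 was -1.57.

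**Figure D2:**
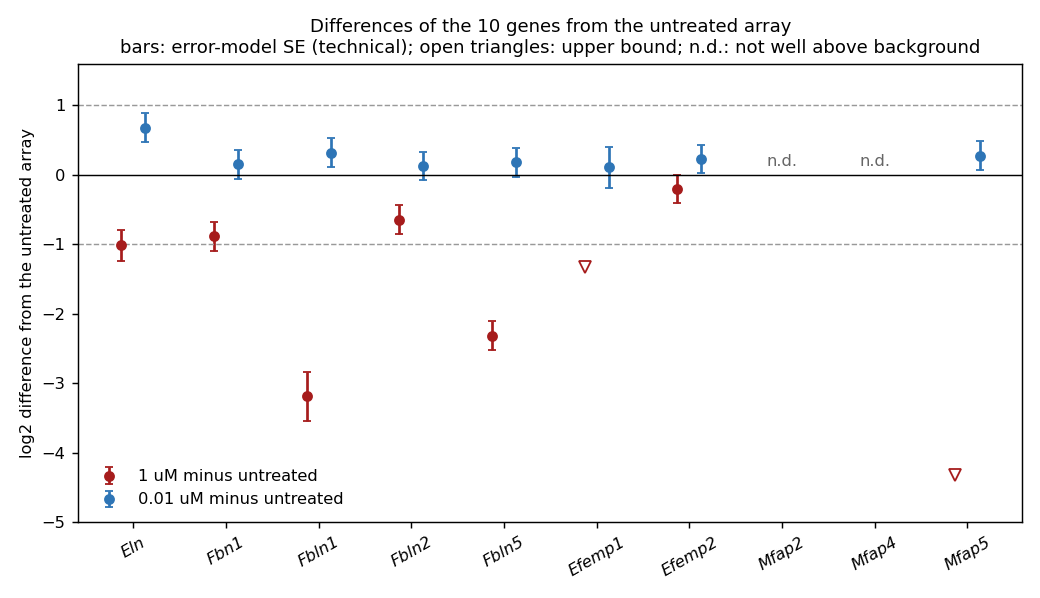
Log2 difference from the untreated array (vertical axis) of each of the 10 genes at 1 uM (red) and 0.01 uM (blue), with bars for the error-model SE and dashed lines at 2-fold. Open triangles are bounds, and Mfap2 and Mfap4 were not well above background. The 1 uM values spread from -4.32 for Mfap5 to -0.20 for Efemp2, and the 0.01 uM values lie between 0.11 and 0.68.

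**Figure D3:**
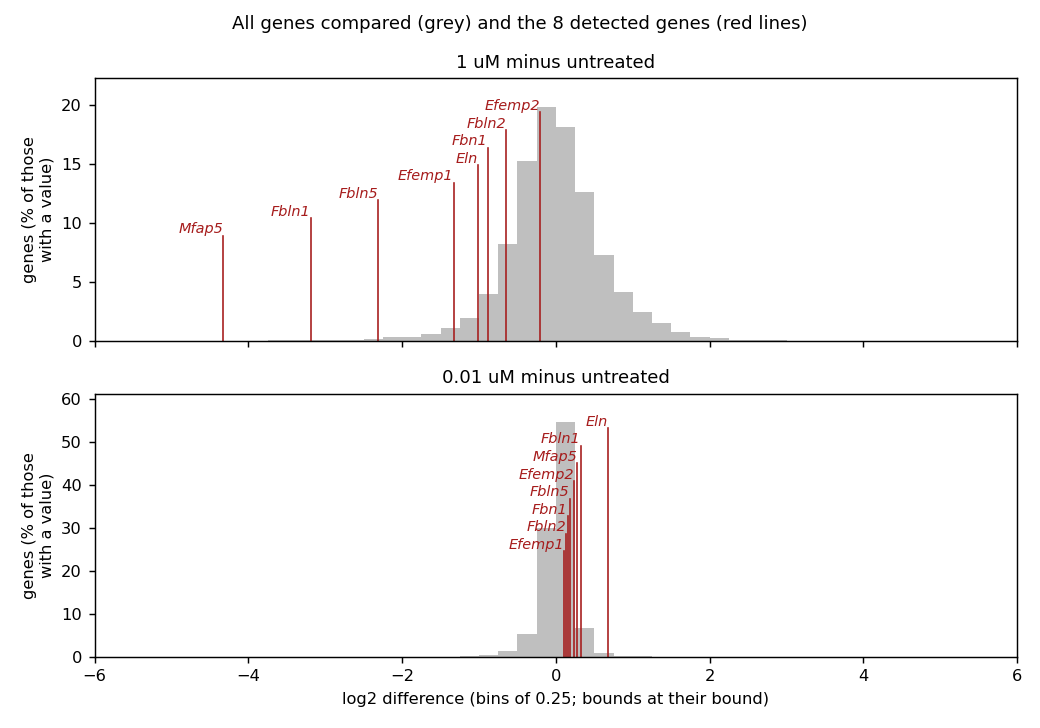
Distribution of log2 differences of all genes compared (grey bars, percent of genes per bin of 0.25) for 1 uM minus untreated (top) and 0.01 uM minus untreated (bottom), with the 8 detected elastic fibre genes as labelled red lines whose heights carry no value. At 1 uM the lines run from the left tail, with Mfap5 at -4.32, to Efemp2 at -0.20 inside the bulk, and at 0.01 uM Eln at 0.68 is the line farthest to the right.

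The 5 fibulins did not behave as a block. At 1 uM Fbln1, Fbln5 and the bound of Efemp1 were past 2-fold, and Fbln2 and Efemp2 were not. At 0.01 uM the 5 fibulin differences lay between 0.11 and 0.32. The spread at 1 uM, from -3.19 to -0.20, was thus wider than at 0.01 uM. This held for all genes as well, whose quartiles were -0.35 and 0.33 at 1 uM and -0.06 and 0.14 at 0.01 uM.

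The genes that stood nearest to Fbln1, Fbln5 and Eln in the pair of differences at 0.01 uM and 1 uM were found among 676 genes that were well above background and unsaturated on all 3 arrays and at least 2-fold apart at 1 uM. Nearest to Fbln1, by Euclidean distance on the log2 scale, were Il1rn (distance 0.02), an antagonist of interleukin-1 signalling, Col2a1 (0.04), a cartilage collagen chain, and Rgcc (0.04). Nearest to Fbln5 were Ak5 (0.02), an adenylate kinase, Epas1 (0.04), a hypoxia-inducible transcription factor, and Selenop (0.07), a selenium carrier. Nearest to Eln were Dpep1 (0.10), a dipeptidase, Socs3 (0.16), an inhibitor of cytokine signalling, and Tfam (0.20), a mitochondrial transcription factor. Eln, at -1.02, lies at the 2-fold limit of the pool, so genes just short of 2-fold could not be its neighbours. Its larger distances are therefore not compared with those of Fbln1 and Fbln5. The likeness rests on 3 arrays and describes their values only.

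Other genes of elastic fibre assembly and turnover were read from 4 lists with 51 genes in all, of which 49 were on the array and 34 were detected on the 1 uM or the untreated array. Of these 34, 2 were saturated on both and had no value, 3 were at least 2-fold lower (8.82%, against 4.86% of all genes) and 0 at least 2-fold higher (against 5.57%), with a median of -0.34 over the 32 with a value. At 0.01 uM 0 of the 26 with a value differed 2-fold in either direction (against 0.26% of all genes upward and 0.168% downward), with a median of 0.14. Between the exposed arrays, 7 of 33 were at least 2-fold lower at 1 uM (against 6.45% of all genes) and 1 higher (against 5.2%). The lists were chosen with earlier results of these data known, so nothing is read from these shares.

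Among 20 partners of elastin and fibrillin, 15 could be compared at 1 uM, with a median of -0.37, which was 0.31 with spike-in scaling. Fn1, the fibronectin gene whose matrix serves as a template for microfibrils, had levels of 6.49 untreated, 6.62 at 0.01 uM and 5.36 at 1 uM, was saturated on the untreated array and was lower at 1 uM by at least 2.2-fold. Its other probes gave -1.66 and -1.29. Bgn, which encodes the proteoglycan biglycan, had levels of 4.63, 4.73 and 3.40 and a 1 uM difference of -1.23 (SE 0.20). That difference rests on 1 of its 2 probes, and averaging them gave -0.14. Adamtsl4, which encodes a fibrillin-binding protein, had levels of 1.93, 2.06 and 0.89 and a difference of -1.05 (SE 0.21). All 3 were lowest at 1 uM, as the elastic fibre genes were, though with spike-in scaling none of the 3 was 2-fold lower.

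The genes for latent TGF-beta binding proteins, which share domains with fibrillin, did not lie on one side, in any of the settings run. Under the normalization used, Ltbp1 was higher at 1 uM than untreated, and Ltbp2, Ltbp3 and Ltbp4 were lower. Ltbp1 had levels of 0.58 untreated, 0.34 at 0.01 uM and 1.49 at 1 uM and was the associated gene whose 1 uM level exceeded its 0.01 uM level by over 2-fold, at 1.15 (SE 0.21), and 0.91 (SE 0.21) above untreated. These values rest on 1 of its 2 probes. Ltbp2, with levels of 6.44, 6.75 and 5.63, was -1.12 (SE 0.20) between the exposed arrays and -0.81 (SE 0.20) from untreated. At 1 uM Ltbp3 was -0.67 (SE 0.20) from untreated, with -0.73 from its other probe, and Ltbp4 -0.37 (SE 0.20). With spike-in scaling Ltbp3 and Ltbp4 lay above 0, at 0.02 and 0.31. Emilin1, an elastic fibre glycoprotein at the elastin surface, had levels of 1.21, 1.59 and 0.31, a difference of -1.29 (SE 0.21) between the exposed arrays and of -0.90 (SE 0.21) from untreated.

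None of the 5 cross-linking genes that could be compared was 2-fold from untreated at 1 uM, and their median was -0.51. Lox, the lysyl oxidase that cross-links elastin and collagen, came nearest, with levels of 4.84 untreated, 4.93 at 0.01 uM and 3.88 at 1 uM and a difference of -0.96 (SE 0.20). It was 2-fold lower at 1 uM than at 0.01 uM, at -1.06 (SE 0.20). With spike-in scaling the median of the 5 was 0.17 and that of Lox alone -0.28.

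Of 14 proteases and protease inhibitors on the array, 6 had a value at 1 uM and none of these values reached 2-fold, 2 of them (Mmp9 and Timp3) being bounds that a larger difference would also meet. Timp2, a metalloproteinase inhibitor, and Ctsl, a lysosomal protease, were saturated on all 3 arrays and have no measured difference, and the other 6 were not well above background on any array. The microfibril-binding integrins had a median of 0.01 at 1 uM, which was 0.69 with spike-in scaling. Probes of a gene differed in sign for Itgb3 (0.32, with -0.44 from another), Itgb1 (0.01, with -0.33) and Itgav (-0.14, with -0.19 and 0.96). For Itga8 they did not (0.14, with 0.19). Itgb5, an integrin beta chain, had levels of 5.45 untreated, 5.76 at 0.01 uM and 4.75 at 1 uM. It was -1.01 (SE 0.20) between the exposed arrays and -0.69 (SE 0.20) from untreated.

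**Figure D4:**
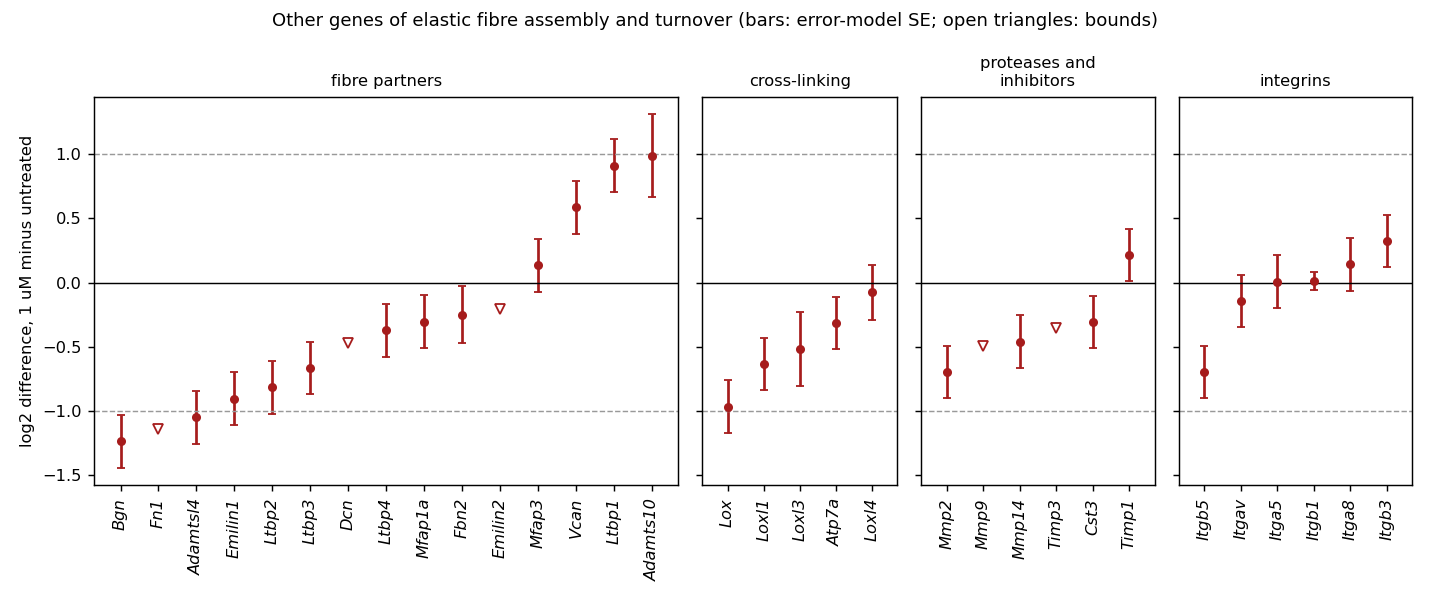
Log2 difference of 1 uM minus untreated (vertical axis) for the associated genes with a value, in 4 groups ordered by value within each, with bars for the error-model SE, open triangles for bounds and dashed lines at 2-fold. Bgn, Fn1 and Adamtsl4 lie below the lower dashed line and no gene lies above the upper one.

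Promoter sequences of 7 of the 10 genes were matched by symbol in the RefSeq table of build GRCm38.p6, with 12 start sites among them; Eln, Mfap4 and Mfap5 had no match. The 250 bases before the most upstream start are shown for Fbln1, Fbln5 and Efemp1, which were at least 2-fold lower at 1 uM, and for Efemp2, which differed least in that comparison. Capitals mark matches to 5 motifs looked for: the AP-1 site TGANTCA, the GC box GGGCGG, the Smad-binding CAGACA and the CArG box on both strands, and TATAAA on the strand shown. No pair of them overlaps in these windows.
Fbln1, chr15:85205699-85205948, plus strand: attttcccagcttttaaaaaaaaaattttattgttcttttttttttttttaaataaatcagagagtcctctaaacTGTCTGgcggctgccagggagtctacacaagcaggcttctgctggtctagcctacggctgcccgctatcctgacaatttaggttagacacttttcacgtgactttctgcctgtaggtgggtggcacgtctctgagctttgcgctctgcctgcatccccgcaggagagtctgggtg
Fbln5, chr12:101819120-101819369, minus strand: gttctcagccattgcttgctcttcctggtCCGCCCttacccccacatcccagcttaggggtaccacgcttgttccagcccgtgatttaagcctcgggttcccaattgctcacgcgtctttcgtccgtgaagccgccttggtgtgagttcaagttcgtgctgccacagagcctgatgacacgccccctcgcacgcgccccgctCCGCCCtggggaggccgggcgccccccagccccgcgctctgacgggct
Efemp1, chr11:28852955-28853204, plus strand: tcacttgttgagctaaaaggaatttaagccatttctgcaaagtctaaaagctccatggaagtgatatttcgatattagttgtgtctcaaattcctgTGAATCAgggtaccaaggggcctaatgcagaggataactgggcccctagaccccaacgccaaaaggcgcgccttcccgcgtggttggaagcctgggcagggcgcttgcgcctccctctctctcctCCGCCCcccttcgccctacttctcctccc
Efemp2, chr19:5473696-5473945, plus strand: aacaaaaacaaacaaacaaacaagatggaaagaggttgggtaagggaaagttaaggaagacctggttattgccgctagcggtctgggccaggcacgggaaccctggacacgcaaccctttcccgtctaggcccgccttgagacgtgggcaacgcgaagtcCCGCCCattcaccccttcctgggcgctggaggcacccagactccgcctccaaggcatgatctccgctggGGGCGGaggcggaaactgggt

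The Efemp1 window held the single AP-1 match of the 12 windows, beginning 154 bases before the start, and 6.75% of all 32851 promoter windows of that length held one. The CAGACA match in the Fbln1 window began 175 bases before the start. CAGACA was in 4 windows of 3 genes (Fbln1, Fbln5 and Mfap2) and in 17.1% of all windows. The GC box was in 9 windows and in at least 1 window of each of the 7 genes, and in 32.7% of all windows. The Fbln1 windows overlap, as do some of the Efemp2 windows, so a site there is counted more than once. The shares of all windows are per window, and they are no measure for the counts of genes. Neither TATAAA, found in 7.59% of all windows, nor the CArG box, found in 1.47%, was in any of the 12. The GC content of the 12 windows had a median of 59.2% and ran from 46.4% to 78.8%, with a median of 52.4% over all windows. These are matches of letters in short windows and describe no binding.

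**Figure D5:**
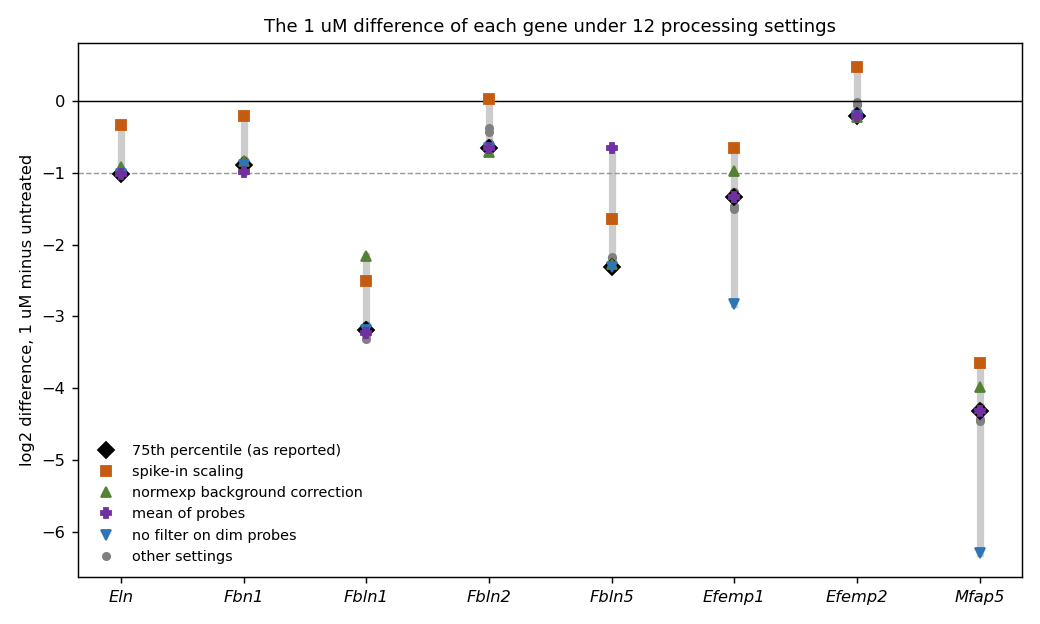
Log2 difference of 1 uM minus untreated (vertical axis) of each detected elastic fibre gene under up to 12 processing settings, 1 point per setting, with the reported setting as a black diamond and the dashed line at 2-fold lower. Fbln1 and Mfap5 lie below the dashed line in every setting with a value, Eln crosses it, and Fbln2 and Efemp2 cross 0 with spike-in scaling (orange squares).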

How the data were processed

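RNA from 3 groups (untreated, 0.01 uM and 1 uM Cr(VI)) was hybridized to 1 single-colour array per group. Per the file headers the authors ran Agilent Feature Extraction 10.5.1.1, and the deposited intensity used is its processed signal, already background-corrected. The deposited value table holds log2 values that match that signal minus a constant per array close to its 75th percentile, within 0.01 for over 99.8% of probes, and served as an alternative. Control spots and outlier-flagged spots were left out, spots of a probe averaged, and log2 signals reduced by each array's 75th percentile over 41167 probes. A gene (its brightest probe) was compared where at least 1 of the 2 arrays was well above background. Calls are differences of at least 2-fold, and with 1 array per group no test was possible. The members and lists were chosen with earlier results of these data known. Named genes were all members, and associated genes at least 2-fold apart in any of the 3 comparisons or, in a list with none, its 2 brightest, which for the proteases and inhibitors were saturated probes whose order cannot be read. Ltbp3 and Ltbp4 were named beside their relatives. In total 13 alternatives were tried, with normexp from limma 3.58.1 in R 4.3.3 and the rest in Python 3.11.15. The comparison was tested on simulated data.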

Additional observations from a re-analysis of the deposited data

Results flagged for a closer look

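Eln stood out because its differences from untreated lay on opposite sides at the 2 doses and each exceeded 1.5-fold, with a log2 difference of 0.68 at 0.01 uM and of -1.02 at 1 uM. Each dose is 1 array, both share the untreated array, and the difference between the doses was not tested. With spike-in scaling the values were 0.98 and -0.33.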

How the results depend on the processing

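With spike-in scaling, which used 5 control probes, 3 elastic fibre genes were at least 2-fold lower at 1 uM and the medians of the set were -0.49 (1 uM), 0.51 (0.01 uM) and -1.19 (between the doses). Over all genes the counts higher and lower were then 3113 and 175, 64 and 5, and 1375 and 362, and of associated genes 4 were higher and 0 lower at 1 uM. Normexp background correction gave 3 elastic fibre genes lower, medians of -0.94 at 1 uM and -1.27 between the doses, 290 genes higher at 1 uM, 10 higher and 6 lower at 0.01 uM, and 375 higher between the doses. Requiring both arrays above background left 3 elastic fibre genes lower at 1 uM with a median of -0.95, since Efemp1 and Mfap5 drop out of that comparison, and over all genes gave 8 higher and 8 lower at 0.01 uM. Without a filter on dim probes the 1 uM median was -0.95, as Mfap2 and Mfap4 enter. The counts over all genes were then 1758 and 1166, 721 and 263, and 1534 and 1574, with 5 associated genes lower. Averaging probes gave a median of -1.30 between the doses. Quantile normalization gave 13 genes lower at 0.01 uM, and the percentile or the median over detected probes each gave 1 associated gene higher at 1 uM. A 3-fold threshold left 3 elastic fibre genes and 0 associated genes lower at 1 uM, with 167 and 201, 9 and 2, and 172 and 254 over all genes. A 1.5-fold threshold gave 1 elastic fibre gene higher at 0.01 uM, 3 associated genes higher and 10 lower at 1 uM, and 1719 and 1670, 107 and 135, and 1491 and 2087 over all genes.

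Of 220 measured differences of single elastic fibre genes under the alternatives, 188 stayed within the reported value's error-model SE and 32 moved beyond it. Of 40 that are reported as bounds and have no error of their own, 27 stayed within the median SE of the measured genes and 13 moved beyond it. The cause of these moves was not tested. The filters, the kept outlier spots and the authors' values leave a well detected probe almost unchanged, and averaging does so for a gene with 1 probe. The differences that stayed therefore include many that could hardly have moved, and their share is no measure of stability. Leaving out a replicate does not apply and no paired analysis was possible because each condition has 1 array. Spread between cultures is unknown, and signals near background limit Efemp1, Mfap5 and Fbln1 at 1 uM.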
